A study of Mus musculus with 244 samples.

Results

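Arginine and polyamine metabolism in single plaque macrophages was followed through 10 genes: the arginases Arg1 and Arg2, the inducible nitric oxide synthase Nos2, the transport proteins Slc7a2 and Slc3a2, the polyamine enzymes Odc1, Srm, Sms and Sat1, and the feedback regulator Oaz1. They are the rows of the deposited table of 24475 genes whose symbol is one of these 10, and all 10 were found. The set was chosen by the large difference of Arg1 RNA between the study's groups in these same cells, so the values between groups are a description and carry no test. Every value comes from single macrophages of the aortic arch of mice, sorted for CD45, CD11b and F4/80 and captured one by one, with 1 library per cell. Donor mice were Apoe-/- and were kept on high fat diet over 16 weeks; cells of their arches are the baseline group. In the regression group, such arches were transplanted into WT mice on chow and taken 3 days later. Regression cells therefore differ from baseline cells in the host's Apoe genotype, the host's diet, the surgery and any entry of host cells together, which cannot be told apart. The sources used here give no age, sex or animal for a cell. They do not say which regression cells came from the donor and which from the host.

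Macrophages can send arginine down competing routes. Arginase splits it into urea and ornithine, and nitric oxide synthase turns it into citrulline and nitric oxide, which is a textbook contrast between alternatively and classically activated mouse macrophages. Ornithine feeds the polyamines: Odc1 makes putrescine, Srm turns putrescine into spermidine and Sms turns spermidine into spermine, while Sat1 acetylates spermidine and spermine so that they can be exported or broken down. Antizyme, the product of Oaz1, binds Odc1 protein and sends it to the proteasome when polyamines are plentiful, so that much of the control of this pathway is not visible in RNA.

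Values are RPKM, read counts scaled by transcript length and library size. Of the 244 libraries, 3 baseline pairs were near-copies (r from 0.992 to 0.997, all other pairs at or below 0.624) and were averaged, which left 241 cells. All 125 baseline cells and 113 of 116 regression cells passed a minimum of 1000 genes per cell. A gene is called listed in a cell at RPKM of 1 or more. Sample numbers fall into 5 runs of consecutive numbers with 1 condition each: baseline cells 21 to 92 (69 kept) and 112 to 167 (56 kept), and regression cells 1 to 20 (20 kept), 93 to 111 (18 kept) and 168 to 244 (75 kept). The labels do not say what these stretches are, and since each holds 1 group only, stretch and group cannot be separated. In place of a replicate check, 6 pairings of a regression with a baseline stretch are given. They reuse 3 regression and 2 baseline stretches, so the pairings are not independent of one another. The median cell listed 2491 genes at baseline and 2360 in regression, with the lowest median, 1893, in regression cells 93 to 111. Ribosomal protein genes held a median of 8.64% of summed RPKM at baseline and 12.2% in regression. Depth estimated from the step of 1 read (in units of 1000000 reads) had a median of 1.16 in 79 baseline libraries and 1.06 in 59 regression libraries, at which 1 read on Arg1 is worth an RPKM of 0.59 and 0.64.

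The sorted cells carried macrophage markers: 124 of 125 baseline cells and 113 of 113 in regression listed at least 3 of 9. At least 3 of 6 monocyte markers were found in 26 cells at baseline and 44 in regression, with a median summed RPKM of 378.2 (0 to 3444) and 498.7 (0 to 15524). Neutrophils, which can also hold arginase, were looked for with 9 markers, of which at least 2 were found in 7 cells at baseline and 23 in regression (median summed RPKM 0.25, 0 to 17653, and 6.28, 0 to 29860). At least 3 of the 9 were found in 2 cells at baseline and 5 in regression. Of these markers, Ly6g, Camp, Ltf, Ngp and Mpo were listed in no cell. S100a8, S100a9 and Csf3r were listed in some cells of both groups, and Retnlg in baseline cells only. S100a8, which monocytes also express, stood at RPKM of 1 or more in 8.80% and 23.9% of the cells. Whether the sorted cells included neutrophils was not tested. Hepatocytes, the main site of Arg1 in the body, were represented by at most 2 of 5 markers in any group, and Cps1 and Otc, their urea cycle partners of Arg1, were listed in no cell. Each group is 1 sample, because cells are not replicates and no animals are named; SDs below are spreads over cells, the 95% CI of a share is the exact Clopper-Pearson interval for counting error alone, and no p-value is given.

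Arg1 (gene 11846, chromosome 10, 24915221 to 24927484, minus strand, mm10) was nearly absent from baseline cells and abundant in most regression cells. At baseline its lowest and median values were 0 and its highest was an RPKM of 16.5; it was listed in 3 of 125 cells (2.40%, 95% CI 0.50 to 6.85%), at 2.32, 5.18 and 16.5. In regression the lowest value was 0, the median 600.2 and the highest 8513, and 94 of 113 cells listed it (83.2%, 95% CI 75.0 to 89.6%). On the log2(RPKM + 1) scale, which understates differences of low genes, the baseline mean was 0.09 ± 0.47 (SD, 125 cells) and the regression mean 7.65 ± 4.32 (SD, 113 cells), which differ by 7.56. The groups overlapped only in their lower part: 87 regression cells exceeded the maximum of the baseline cells and the remaining ones did not. By mean RPKM, Arg1 ranked 65 among the 24475 genes in regression and 11275 at baseline.

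The regression cells did not form a narrow peak of Arg1. In 19 of them Arg1 was below RPKM 1, in 5 it was from 1 to below 8, in 10 from 8 to below 64, in 19 from 64 to below 512, in 46 from 512 to below 4096, and in 14 it was 4096 or more. Regression cells thus ranged from no Arg1 to very high levels, with most of the cells in the upper part of that range. Among the cells that listed it, the median was 923.1. Apoe, the gene inactivated in the donors, was listed in 9 of 125 baseline cells (highest RPKM 178.2; 2 of 69 in cells 21 to 92 and 7 of 56 in cells 112 to 167), none of them among the 3 with Arg1, where its RPKM was 0.67, 0 and 0. In regression Apoe was listed in all 19 cells without Arg1 and in 93 of the 94 with it. Its median RPKM was 5449.5 in regression and 0 at baseline. Hosts were WT, and whether a regression cell came from the donor or the host was not tested.

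Arg1 also differed between stretches of the regression group. It was listed in 19 of 20 cells (95.0%, 95% CI 75.1 to 99.9%) of stretch 1 to 20 and in 66 of 75 (88.0%, 95% CI 78.4 to 94.4%) of stretch 168 to 244, but in 9 of 18 (50.0%, 95% CI 26.0 to 74.0%) of stretch 93 to 111. Mean log2 values were 8.42 ± 4.16, 8.37 ± 3.85 and 3.80 ± 4.50. In cells 93 to 111 the median RPKM was 1.37 and the highest 4292, so that the stretch held cells with none and cells with much Arg1. The difference of cells 93 to 111 from cells 168 to 244 was -4.57. Arg1 had r = 0.43 with the number of genes listed per cell over the 18 cells 93 to 111, where that number was also lowest, and r = -0.30 and 0.21 in cells 1 to 20 and 168 to 244; the part of depth in the difference was not tested. Among cells with at least 2000 genes, 92.6% of regression cells listed Arg1. That cut lies above the median of 1893 genes in cells 93 to 111, so it also removes many cells of this stretch. It therefore cannot separate depth from stretch. The 2 baseline stretches were alike in having almost none, with 2 of 69 and 1 of 56 cells. In the 6 pairings of stretches the difference ran from 3.68 to 8.36, and the 2 lowest pairings were those with cells 93 to 111.

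**Figure D1:**
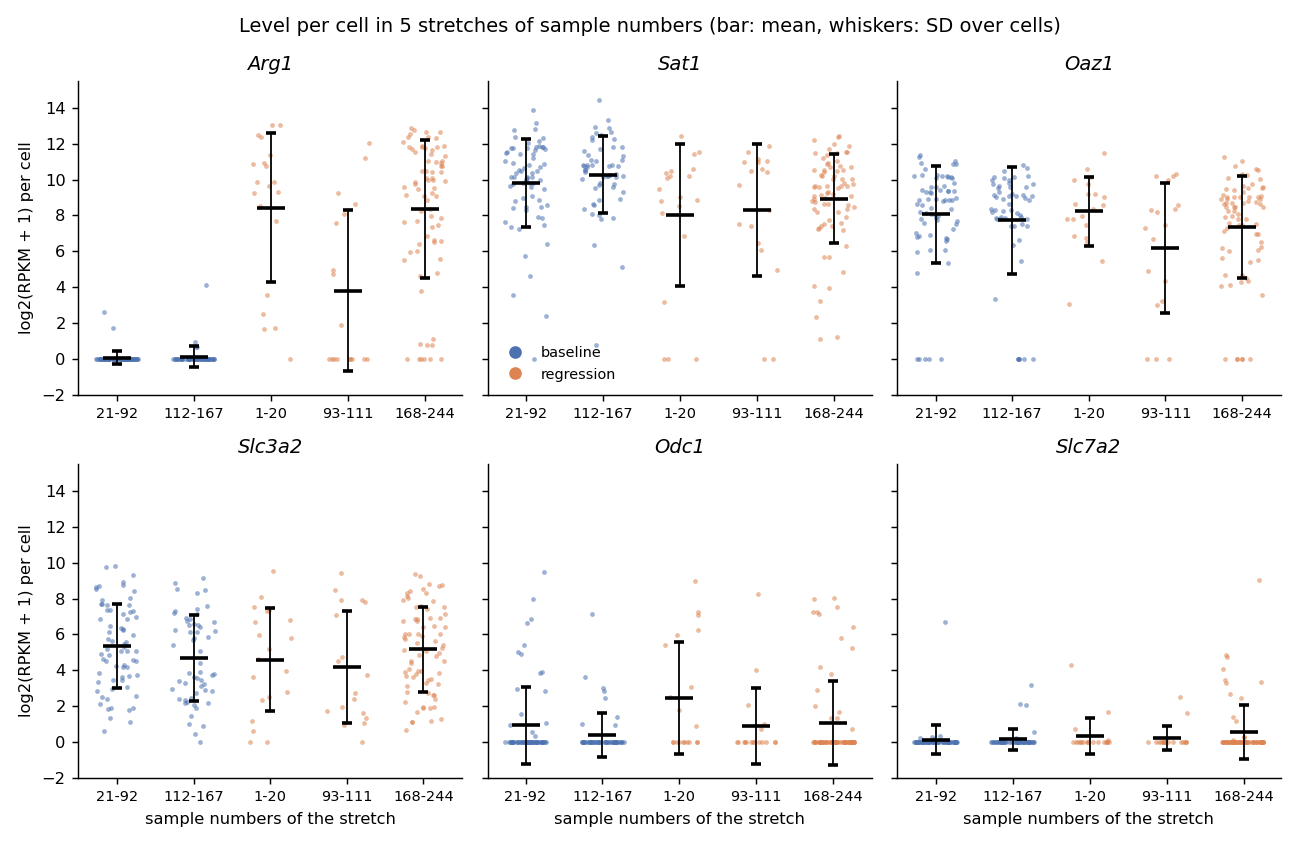
Each point is 1 cell, placed by its stretch of sample numbers on the x axis and its log2(RPKM + 1) on the y axis, for 6 of the 10 genes; the thick bar is the mean and the whiskers are the SD over cells. Arg1 is near 0 in both baseline stretches and spreads from 0 to 13.06 in regression, while Sat1, Oaz1 and Slc3a2 are high in all 5 stretches and Odc1 and Slc7a2 are at 0 in most cells.

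The mitochondrial arginase did not follow the cytosolic one at a comparable level. Arg2 (gene 11847, chromosome 12, 79130777 to 79156301, plus strand) was listed in 3 of 125 baseline cells (2.40%, 95% CI 0.50 to 6.85%) and 6 of 113 regression cells (5.31%, 95% CI 1.97 to 11.2%). The median was 0 in both groups, and the highest cell stood at an RPKM of 300.6 at baseline and 236.3 in regression. Its mean log2 values, 0.10 ± 0.79 and 0.31 ± 1.41, differ by 0.21, and the shares rest on only 3 and 6 cells. Of the 6 regression cells with Arg2, 5 also listed Arg1. Arg2 missed the filter on low values used for counting genes (listed in 5% of all cells) and stands in no count below.

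Nos2 (gene 18126, chromosome 11, 78920787 to 78960254, plus strand), whose enzyme competes with arginase for arginine, was the lowest of the 10 genes in both groups. Of 125 baseline cells 0 listed it (exact upper limit 2.91%; a floor of 3 cells is 2.40%), and it was listed in 3 of 113 regression cells (2.65%, 95% CI 0.55 to 7.56%), where the values were an RPKM of 7.31, 8.51 and 21.0. Of these 3 cells, 2 also listed Arg1. No regression cell of stretch 93 to 111, where Arg1 was lowest, listed Nos2, although with 18 cells the exact upper limit is 18.5% (a floor of 3 cells is 16.7%). Nos2 also missed the filter on low values.

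Slc7a2 (gene 11988, chromosome 8, 40862396 to 40922308, plus strand) encodes a cationic amino acid transporter that carries arginine into macrophages. It was listed in 4 of 125 baseline cells (3.20%, 95% CI 0.88 to 7.99%) and 15 of 113 regression cells (13.3%, 95% CI 7.62 to 20.9%). The median was 0 in both groups and the highest cell reached an RPKM of 103.1 at baseline and 528.8 in regression. The mean log2 values of 0.13 ± 0.71 and 0.46 ± 1.34 differ by 0.34, which was positive in 6 of 6 pairings of stretches (0.08 to 0.44) but 0.16 without cells 168 to 244. In regression, stretches 1 to 20, 93 to 111 and 168 to 244 listed it in 2, 2 and 11 cells. All 15 regression cells with Slc7a2 were among the 94 with Arg1, and 0 of the 19 cells without Arg1 listed it. Since 94 of all 113 regression cells listed Arg1, nothing is read from this count. At RPKM of 10 or more, the shares were 0.80% and 5.31%.

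Slc3a2 (gene 17254, chromosome 19, 8706882 to 8723369, minus strand) encodes CD98 heavy chain, the shared partner of several amino acid exchangers. It was listed in 96.0% of baseline cells (95% CI 90.9 to 98.7%) and 94.7% of regression cells (95% CI 88.8 to 98.0%). Its median RPKM was 33.1 at baseline and 30.3 in regression, and the highest cells stood at 911.5 and 745.5. Mean log2 values were 5.05 ± 2.38 and 4.90 ± 2.59, and the groups overlapped over nearly their whole range. The difference of -0.14 was negative in 5 of 6 pairings and positive in 1, and became 0.23 without baseline cells 21 to 92.

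**Figure D2:**
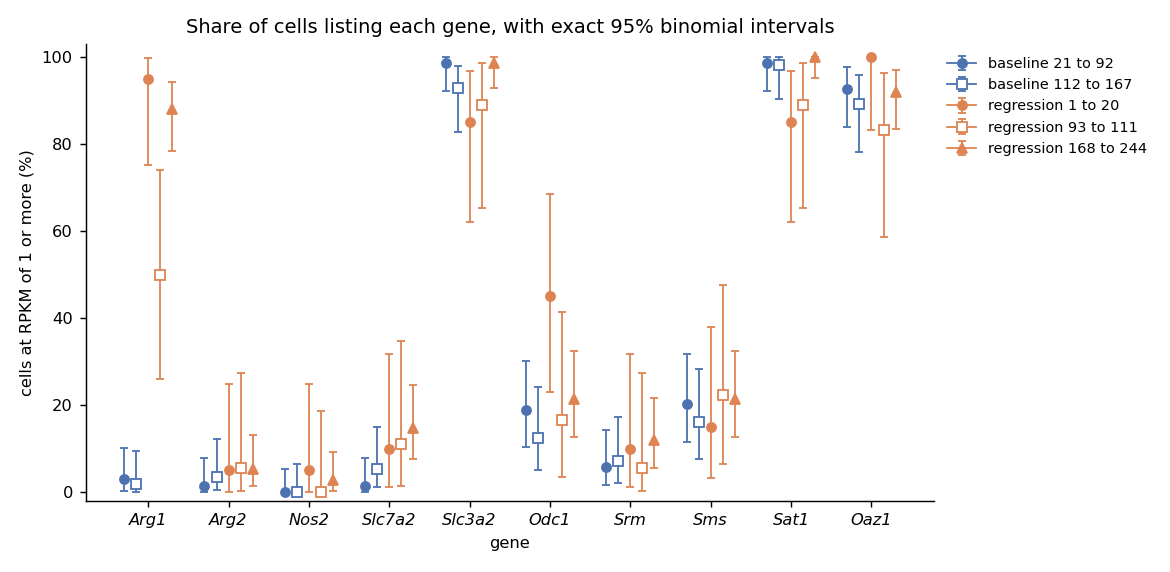
The y axis gives the percent of cells at RPKM of 1 or more for each of the 10 genes on the x axis, in 2 baseline and 3 regression stretches, with exact 95% intervals for counting error. Arg1 moves from under 3% in both baseline stretches to 50.0 to 95.0% in regression, whereas Slc3a2, Sat1 and Oaz1 are listed in at least 83.3% of cells of every stretch.

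Odc1 (gene 18263, chromosome 12, 17544794 to 17551505, plus strand), the entry enzyme of polyamine synthesis that uses the ornithine made by arginase, was listed in a minority of cells. It was found in 20 of 125 baseline cells (16.0%, 95% CI 10.1 to 23.6%) and 28 of 113 regression cells (24.8%, 95% CI 17.1 to 33.8%), with a median of 0 in both groups and highest RPKM values of 707.2 and 512.2. In cells that listed it, the median RPKM was 12.2 at baseline and 47.9 in regression. The mean log2 values, 0.69 ± 1.81 and 1.29 ± 2.51, differ by 0.60. The stretches were not alike: regression cells 1 to 20 listed Odc1 in 9 of 20 cells (45.0%, 95% CI 23.1 to 68.5%) with a mean of 2.46 ± 3.13, while stretches 93 to 111 and 168 to 244 had means of 0.89 ± 2.11 and 1.07 ± 2.35, against 0.93 ± 2.15 in baseline cells 21 to 92 and 0.40 ± 1.22 in baseline cells 112 to 167. Without cells 1 to 20 the difference was 0.35, and without cells 168 to 244 it was 1.02. In the pairing of cells 93 to 111 with cells 21 to 92 it was -0.04.

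Srm (gene 20810, chromosome 4, 148591503 to 148594993, plus strand), spermidine synthase, was listed in 8 baseline cells (6.40%, 95% CI 2.80 to 12.2%) and 12 regression cells (10.6%, 95% CI 5.61 to 17.8%). The mean log2 difference was 0.34, positive in 5 of 6 pairings and 0.09 without cells 168 to 244, where 9 of the 12 cells lay. The highest regression cell stood at an RPKM of 1014 and the highest baseline cell at 76.6. Sms (gene 20603, chromosome X, 157443855 to 157492287, minus strand), spermine synthase, was listed in 18.4% of baseline (95% CI 12.0 to 26.3%) and 20.4% of regression cells (95% CI 13.4 to 29.0%). Its mean log2 values of 0.79 ± 1.88 and 0.88 ± 1.81 differed by 0.08, with 4 of 6 pairings positive, and the log2 ratio of mean RPKM + 1 had the opposite sign (-1.09); the highest baseline cell reached 444.6 and the highest regression cell 92.7. For each of the 3 synthesis genes the difference between groups was smaller than the SD over cells of either group. The same held for Arg2, Slc7a2, Slc3a2, Sat1 and Oaz1, so it does not set the synthesis genes apart.

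Sat1 (gene 20229, chromosome X, 155213132 to 155216449, minus strand), the rate-limiting enzyme of polyamine breakdown, was the most abundant of the 10 genes at baseline and lower in regression. Its RPKM ran from 0 to 21926 with a median of 1303 at baseline and from 0 to 5559 with a median of 729.5 in regression. Cells listing it made up 98.4% of baseline (95% CI 94.3 to 99.8%) and 95.6% of regression cells (95% CI 90.0 to 98.5%). Mean log2 values were 10.01 ± 2.33 and 8.67 ± 2.99, with a difference of -1.34, and 11 of 125 baseline cells lay above the highest regression cell. The mean was lower in regression in 6 of 6 pairings, from -2.26 to -0.87. The difference was -1.87 without cells 168 to 244 and -0.82 in cells with at least 2000 genes, of which there were 97 at baseline and 81 in regression. In regression cells Sat1 correlated with the number of genes listed per cell (r = 0.30 over 113 cells), while at baseline it did not (r = -0.02 over 125 cells); the part of depth in the difference was not tested.

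Oaz1 (gene 18245, chromosome 10, 80826656 to 80829290, plus strand) makes antizyme only when the ribosome slips by 1 base at a stop codon inside its reading frame, a step that polyamines favour. The RNA levels given here therefore do not show how much antizyme was made. The 30 bases around that site, in capitals the TCC codon and the stop codon TGA that follows it, are shown because the readout of this gene turns on them (GENCODE vM21 transcript sequence, mm10, chr10:80828280-80828309, plus strand, coding exon):

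Oaz1 shift site: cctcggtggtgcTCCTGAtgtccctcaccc

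Of 7 annotated Oaz1 transcripts, 2 hold the site as shown and 3 are annotated with 1 base of it left out. Oaz1 RNA was listed in 91.2% of baseline (95% CI 84.8 to 95.5%) and 92.0% of regression cells (95% CI 85.4 to 96.3%), with a median RPKM of 452.4 (0 to 2669) and 305.1 (0 to 2837). Mean log2 values of 7.91 ± 2.83 and 7.33 ± 2.89 differed by -0.59. The difference was negative in 4 of 6 pairings and positive in 2, both with regression cells 1 to 20, where Oaz1 was listed in 20 of 20 cells. Cells 93 to 111 had the lowest mean, 6.17 ± 3.63, and their difference from cells 168 to 244 was -1.20.

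**Figure D3:**
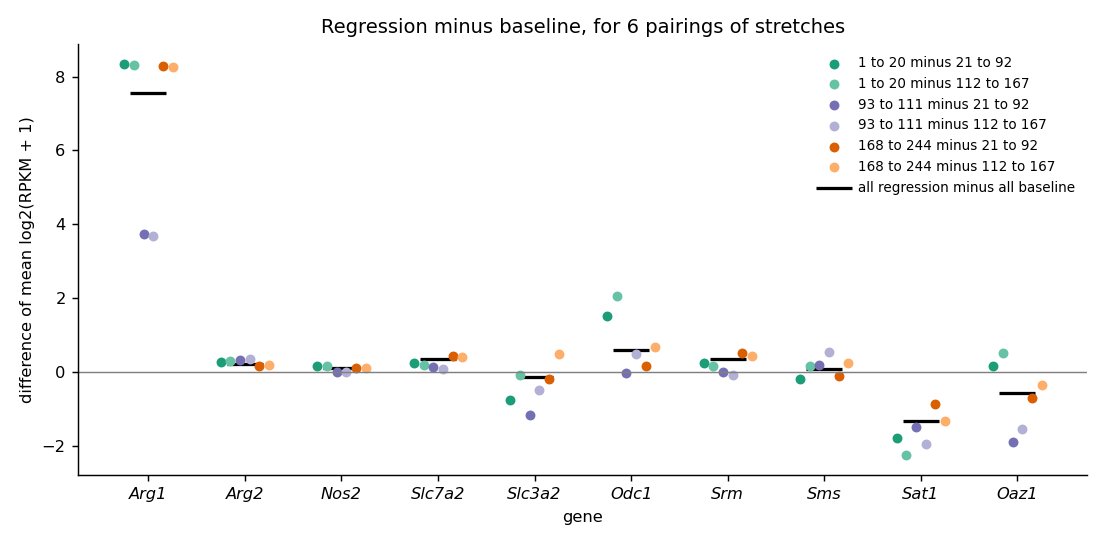
The y axis gives the difference of mean log2(RPKM + 1), regression minus baseline, for each gene on the x axis; coloured points are the 6 pairings of a regression with a baseline stretch and the black bar is the difference over all cells. Arg1 lies at 3.68 or more in all 6 pairings and Sat1 at -0.87 or less, while Slc3a2, Odc1, Srm, Sms and Oaz1 have points on both sides of 0.

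RPKM is scaled by transcript length, so mean RPKM can be set in order across genes. At baseline the order was Sat1 (2258 ± 2951, SD over cells), Oaz1 (561.8 ± 542.3), Slc3a2 (102.8 ± 163.6), Sms (12.7 ± 63.2), Odc1 (11.9 ± 69.0), Arg2 (2.47 ± 26.9), Srm (1.37 ± 8.64), Slc7a2 (0.95 ± 9.25), Arg1 (0.21 ± 1.55) and Nos2 at 0. In regression Arg1 (1510 ± 2073) stood first, followed by Sat1 (1137 ± 1257), Oaz1 (450.3 ± 524.7), Slc3a2 (103.4 ± 156.1), Odc1 (23.6 ± 72.3), Srm (15.7 ± 100.4), Arg2 (6.03 ± 32.9), Slc7a2 (5.91 ± 49.8), Sms (5.40 ± 15.0) and Nos2 (0.33 ± 2.22). Between neighbours in either order, the step was smaller than the SD over cells of the higher gene. The places of rarely listed genes depend on single cells. Arg2 at baseline had 1 cell at 300.6, in cells 21 to 92, and stood at place 9 of 10 in cells 112 to 167. In regression, cell 237 held the highest values of both Srm (1014) and Slc7a2 (528.8). The median cell listed 3 of the 10 genes at baseline and 4 in regression, with up to 5 and up to 8. This count includes Arg1, by which the set was chosen and which was listed in 2.40% and 83.2% of the cells.

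A gene was counted as higher or lower at a difference of 1 or more on the log2(RPKM + 1) scale, among genes listed in at least 5% of all cells, which 8 of the 10 members passed. Of these 8, 1 (Arg1) was higher in regression, where 2.57% of 8799 genes were, and 1 (Sat1) was lower, where 3.35% of genes were; the choice of members used this contrast, so nothing is read from these counts. The median difference of the 8 was 0.21, against -0.02 over the 8799 genes. Between stretches of the same group, the regression cells 93 to 111 had 2 of 8 members (Arg1 and Oaz1) lower than cells 168 to 244, against 8.83% of all genes, and 0 higher, against 2.63%. Cells 1 to 20 had 1 member (Odc1) higher than cells 168 to 244, against 8.07% of genes, and 0 lower, against 3.95%. Compared with cells 93 to 111, cells 1 to 20 had 3 members higher (Arg1, Odc1 and Oaz1), against 16.5% of genes, and 0 lower, against 4.56%. Between the baseline stretches no member passed in either direction, against 1.84% of genes higher and 1.75% lower in cells 112 to 167.

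Within cells, the members hardly varied together. Correlations of log2(RPKM + 1) were taken after the mean of each stretch was removed and describe these cells, which share a library kit and vary in depth. Over the 45 pairs of members in 113 regression cells, Pearson's r ran from -0.17 to 0.27 with a median of 0.04, and over the 36 pairs that could be computed at baseline from -0.18 to 0.22 with a median of 0.01. The highest value in regression was that of Arg1 and Slc7a2 (r = 0.27; 0.23, 0.49 and 0.27 in stretches 1 to 20, 93 to 111 and 168 to 244). Odc1 uses the product of Arg1, and r between them was 0.02 in regression; 25 of the 28 regression cells with Odc1 listed Arg1, against 94 of all 113. With Sat1 r was -0.09, with Oaz1 0.01 and with Slc3a2 0.02. Odc1 and Srm, consecutive in the pathway, had r = 0.21 in regression and -0.05 at baseline. Correlations of members with the number of genes listed per cell, a proxy for depth and RNA content, were of the same size in regression, such as 0.13 for Arg1, 0.25 for Odc1 and 0.27 for Oaz1, so values this low are not read as shared expression.

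The genes whose pattern over regression cells was most like that of Arg1 were taken from 3311 genes listed in at least 25% of these cells. The 8 highest were Fn1, fibronectin (r = 0.49), the C-type lectin receptor Clec4d (0.48), Thbs1, thrombospondin 1 (0.44), the glycolytic enzyme Tpi1 (0.41), the acute phase protein Saa3 (0.39), the lipid droplet protein Hilpda (0.38), Bst1 (0.37) and the syndecan Sdc3 (0.37). The central 95% of the 3311 genes lay from -0.18 to 0.25. Fn1 had r = 0.53, 0.72 and 0.41 and Clec4d 0.59, 0.61 and 0.41 in stretches 1 to 20, 93 to 111 and 168 to 244, so that both were positive in each stretch. Spearman's rho was 0.39 for Fn1 and 0.45 for Clec4d.

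The 4 lowest all serve MHC class II antigen presentation: H2-Aa (r = -0.43), the invariant chain Cd74 (-0.40), H2-Eb1 (-0.40) and H2-Ab1 (-0.38). H2-Aa was negative in each stretch (-0.61, -0.20 and -0.44), weakest in cells 93 to 111, and its rho was -0.45. Of the 19 regression cells without Arg1, 16 listed H2-Aa and 18 listed Cd74; of the 94 with Arg1, 54 listed H2-Aa and 66 listed Cd74. Thus cells that listed Arg1 included both cells with and cells without class II transcripts, whereas cells without Arg1 mostly held class II transcripts. In the 14 cells with Arg1 at RPKM of 4096 or more, the highest log2 value of H2-Aa was 6.13 (cell 104). The summed level of the 6 monocyte markers had r = -0.23 with Arg1, that of the 9 macrophage markers 0.15 and that of the 9 neutrophil markers 0.07; their part in these relations was not tested. For the members listed in at least 25% of all cells other than Arg1, the highest correlations over 238 cells were lower: 0.25 for Slc3a2 (Arglu1, a splicing-related gene), 0.30 for Sat1 (Cdkn1b, a cell cycle inhibitor) and 0.37 for Oaz1 (the phospholipase family gene Pld4).

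**Figure D4:**
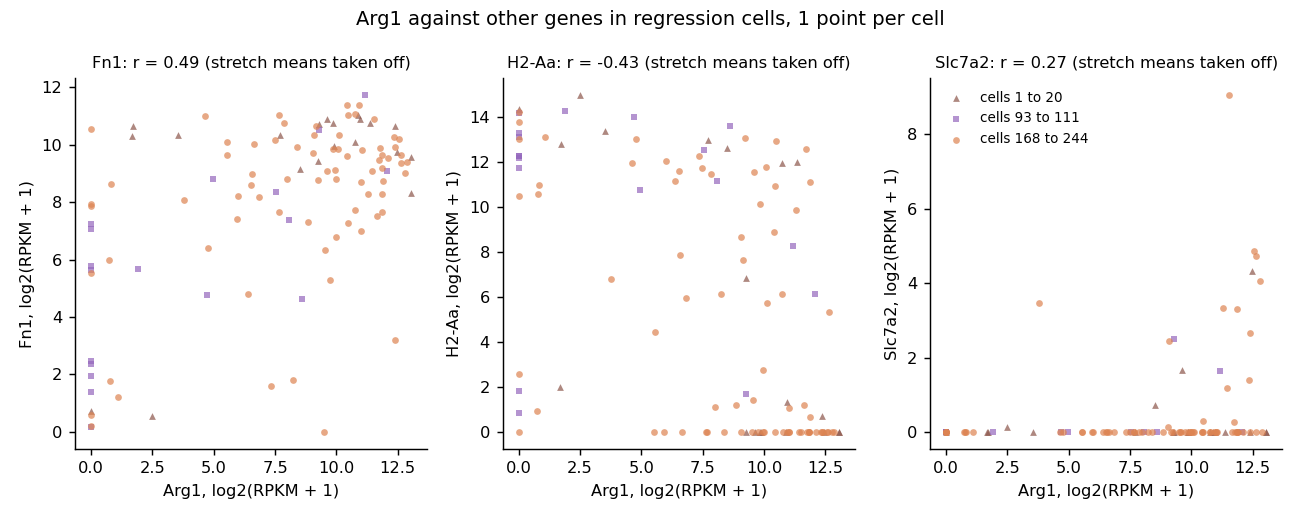
Each point is 1 of 113 regression cells, with Arg1 on the x axis and Fn1, H2-Aa or Slc7a2 on the y axis, both as log2(RPKM + 1), and the marker shape giving the stretch. Cells with high Arg1 have mostly high Fn1 (r = 0.49). H2-Aa (r = -0.43) is high in most cells at Arg1 of 0. In cells with Arg1, H2-Aa runs from 0 to high values, but is at most 6.13 where Arg1 is at RPKM of 4096 or more. Slc7a2 is above RPKM 1 only in cells with Arg1 (15 cells), and 94 of all 113 cells listed Arg1.

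The rest of the pathway was read from a list of 55 genes around arginine, proline, nitric oxide, methionine, polyamine, hypusine and creatine metabolism, of which 35 were listed in at least 5% of all cells. None of the 35 was higher in regression by 1 or more (2.57% of all genes were) and 2 were lower (3.35% of all genes were), with a median difference of -0.05 against -0.02 over all genes. These 2 were Gatm and Qdpr. Gatm, which joins arginine and glycine as the entry step of creatine synthesis, was listed in 74.4% of cells at baseline and 39.8% in regression. Its RPKM ran from 0 to 2198 and from 0 to 1180, and its mean log2 values of 4.92 ± 3.52 and 2.41 ± 3.30 gave a difference of -2.51. Gatm was lower in 6 of 6 pairings, from -3.32 to -2.14. Qdpr, which recycles the biopterin cofactor of nitric oxide synthase, differed by -1.03 (28.0% and 12.4% of cells; -1.57 to -0.86 over the pairings) and lay at -0.95 without cells 93 to 111 or without cells 112 to 167.

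Genes that feed or drain the ornithine pool differed by less than 1. Oat, which takes ornithine towards proline and glutamate, differed by -0.15 (28.8% and 27.4% of cells); without cells 168 to 244 it stood at -1.11. Asl, which makes arginine from argininosuccinate, differed by 0.35 and stood at 1.00 without cells 168 to 244. Among genes that supply the aminopropyl groups of spermidine and spermine, Mat2a (-0.34), Mat2b (-0.06) and Amd2 (-0.36) differed little; reads of Amd2 may be shared with its near-identical copy Amd1, and the split between them is uncertain. Azin1, which frees Odc1 from antizyme, differed by -0.21, and Oaz2, a second antizyme gene, by -0.46. Smox, which oxidises spermine, differed by 0.36, and the polyamine transporter genes Atp13a2 and Atp13a3 by 0.37 and 0.48. Eif5a, the translation factor that carries the spermidine-derived hypusine, differed by -0.90 (83.2% and 77.9% of cells).

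Among transporters, Slc7a8, which pairs with Slc3a2, differed by 0.78 (44.8% and 56.6% of cells). Its mean was 2.70 ± 2.37 in cells 168 to 244, 1.16 ± 1.84 in cells 1 to 20 and 1.47 ± 2.34 in cells 93 to 111, and without cells 168 to 244 the difference was -0.14. Slc38a2, a neutral amino acid transporter, differed by 0.03. Pts, a biopterin synthesis enzyme, differed by 0.81 and was higher in 6 of 6 pairings (0.30 to 1.18).

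**Figure D5:**
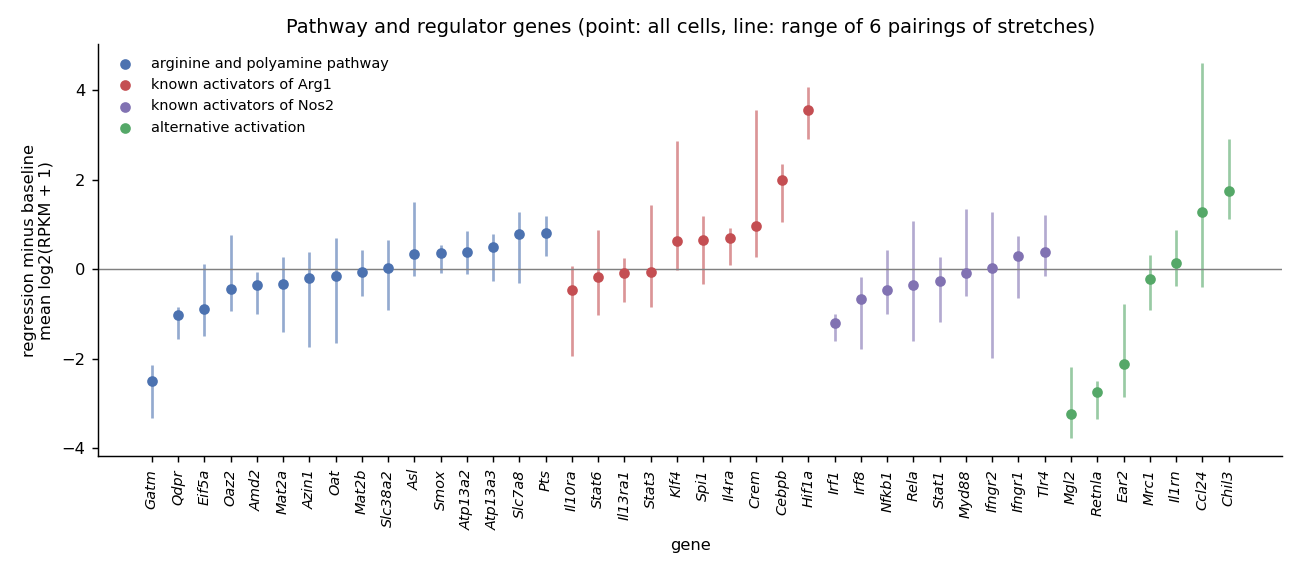
Points give the difference of mean log2(RPKM + 1), regression minus baseline, for genes that reach 25% of cells in either group, coloured by list, and lines give the range over 6 pairings of stretches. In the pathway list Gatm (-2.51) lies lowest and Pts (0.81) highest, and among activators of Arg1 the points of Hif1a (3.56) and Cebpb (1.99) lie above the others.

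Of 14 genes known to activate Arg1, 13 passed the filter on low values, 2 were higher in regression by 1 or more (2.57% of all genes were) and 0 lower (3.35% of all genes were), with a median difference of -0.08 against -0.02 over all genes. These 2 were Hif1a, a subunit of the hypoxia-inducible factor, at 3.56 (45.6% and 84.1% of cells), and Cebpb, a transcription factor that binds the Arg1 enhancer, at 1.99 (92.0% and 99.1% of cells); both were higher in 6 of 6 pairings. Across regression cells, Cebpb had r = 0.28 and Hif1a r = 0.21 with Arg1. The central range of the 3311 genes given above was -0.18 to 0.25. Hif1a thus lay inside that range and Cebpb just above it. The other activators past the filter ran from r = -0.15 (Pparg) to 0.17 (Ppard). Values this low are not read as shared expression. Genes of the interleukin 4 route differed less: Stat6 by -0.17, Il13ra1 by -0.09 and Il4ra by 0.69. Il4ra was higher in 6 of 6 pairings (0.08 to 0.91), Stat6 in 2 and Il13ra1 in 1. Crem, a cAMP-responsive factor, differed by 0.97 but by 0.43 without cells 1 to 20, and Klf4 by 0.63 but by 0.20 without them. Of 9 genes known to activate Nos2, all passed the filter, 0 were higher by 1 or more (2.57% of all genes) and 1 was lower (3.35% of all genes), with a median difference of -0.27. The lower gene was Irf1, at -1.21 (44.0% and 23.0% of cells), lower in 6 of 6 pairings. The interferon gamma receptor genes Ifngr1 and Ifngr2 differed by 0.28 and 0.03.

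Of 10 other textbook markers of alternative activation, 9 passed the filter, 2 were higher by 1 or more (Chil3 at 1.75 and Ccl24 at 1.28; 2.57% of all genes) and 3 were lower (Mgl2 at -3.23, Retnla at -2.74 and Ear2 at -2.11; 3.35% of all genes), with a median difference of -0.23. Retnla was listed in 45.6% of baseline cells, where Arg1 was almost absent, and in 5.31% of regression cells. In regression all 6 cells with Retnla also listed Arg1, and 39 of 42 cells with Chil3 and 30 of 31 cells with Ccl24 did so. Of all 113 regression cells, 94 listed Arg1. For the other markers the counts were 17 of 17 (Cd163), 73 of 82 (Mrc1), 24 of 28 (Il1rn) and 17 of 20 (Clec10a). They were 7 of 10 for Mgl2 and 4 of 6 for Ear2, so nothing is read from these counts. Without cells 1 to 20, the difference of Ccl24 was 0.60.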

How the data were processed

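The authors deposited 1 table of RPKM values for 24475 genes and 244 libraries with their symbols. Single cells were caught on the Fluidigm C1 system and libraries made with the SMARTer Ultra Low RNA and Nextera XT kits, per the labels' protocols, whose text speaks of islet cells although all other labels say macrophage. Per the submitters' processing notes, CASAVA 1.8.2, FastQC and the build mm10 were used; aligner, annotation and RPKM program: not given in the sources used here. Without molecular identifiers, values include amplification noise, and reads shared with near-identical copies may be split between genes.

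Columns were matched to samples by the number in the title. Near-copy libraries were averaged, a minimum of 1000 genes at RPKM of 1 was set per cell, and values were compared as log2(RPKM + 1), with Python 3.11.15, numpy 2.4.6, pandas 2.3.3 and scipy 1.17.1. No count model was used, and each group counts as 1 sample. Depth was estimated from 5727 genes with 1 transcript in GENCODE vM21 (GRCm38, the same build as mm10), for 138 libraries in which separate gene sets agreed within 10%. The computation was tested on simulated data. Doublets were not called. Settings that leave out a stretch for the regulator and activation lists, and correlations with Arg1 within each stretch, were added after seeing the data. Members and gene lists were chosen with earlier results of these data known. All 10 members are named, with list genes that reach 25% of cells in either group (some in the plot only), and the 8 highest and 4 lowest correlations with Arg1. For Slc3a2, Sat1 and Oaz1, 3 were taken and the highest is given. Cell type lists of dendritic, B, T and NK, mast, platelet, red, endothelial, smooth muscle and fibroblast markers were also read: at least 3 markers were listed in 2 baseline cells for dendritic cells, in 2 baseline cells for fibroblasts and in 0 cells for the others.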

Additional observations from a re-analysis of the deposited data

How the results depend on the processing

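Arg1 was higher in regression under all 13 other settings. Its difference of 7.56 became 10.23 with a pseudocount of 0.1, 4.98 with a pseudocount of 10 and 10.29 as the log2 ratio of mean RPKM + 1, and lay at 6.14 without cells 168 to 244. Sat1 was lower under all 13 settings (-1.87 to -0.82). Directions also held in 13 of 13 settings for Arg2, Nos2, Slc7a2, Odc1, Srm and Oaz1, and in 11 of 13 for Slc3a2 and for Sms. The count of members higher by 1 or more, 1 as reported, was 3 (Arg1, Slc7a2 and Srm) with the ratio of mean RPKM, where 13.7% of genes passed, and 2 (Arg1 and Odc1) without cells 168 to 244; the count of members lower was 0 in cells with at least 2000 genes, and with the ratio of mean RPKM the 1 member lower was Sms in place of Sat1 (-0.99). Pathway genes higher, 0 as reported, were 2 with a pseudocount of 0.1, 5 with the ratio of mean RPKM, and 1 (Slc7a8) in cells with at least 2000 genes or without cells 1 to 20. Pathway genes lower, 2 as reported, were 4 with the ratio of mean RPKM and 1 (Gatm) with a pseudocount of 10, with near-copies kept, without cells 93 to 111, without cells 112 to 167, or among genes in at least 25% of all cells; they were 3 in 8 settings, with Eif5a added in 7 (pseudocount of 0.1, rescaled cells, all cells, cells with at least 2000 genes, without cells holding markers of another type, without cells 1 to 20, without cells 21 to 92) and Oat added without cells 168 to 244, and 2 with no filter on low values. The cause was not tested. No paired analysis was possible because the groups share no replicate numbers and the result comes from no test. For Arg2, Nos2, Slc7a2 and Srm, the small number of cells that list them limits the precision. The highest regression values of Slc7a2 and Srm came from the same cell, number 237, which weighs on their ratios of mean RPKM.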
